A study of Mus musculus with 6 samples.

Results

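The liver's glutathione system was followed across wild type and Atp7b-/- mice through 37 genes that encode glutathione transferases and the enzymes that make, reduce, break down and use glutathione. The genes were taken by name and matched by Ensembl identifier to the count table, and all 37 had a row among its 41388 gene identifiers. They comprised 22 transferases, of which 4 were of alpha class, 7 of mu class, 2 of pi class, 3 of theta class, 3 of zeta, omega and kappa class and 3 microsomal. The other 15 were 3 synthesis genes, glutathione reductase, 2 genes of breakdown and recycling, 5 peroxidases and 4 glutaredoxins. RNA was sequenced from whole livers in 6 libraries, 3 of the genotype wild type and 3 of the genotype Atp7b-/-. Both groups were C57BLx129S6SvEv mice aged 6 weeks on a diet with 16 ppm copper. Atp7b encodes the ATPase that exports copper from hepatocytes, its loss in people causes Wilson disease, and Atp7b-/- mice are a model of it. The labels name the genotype and not the allele. Nor do they say whether every library is a different mouse, and the p-values hold for the spread among the 6 libraries, some of which may be technical.

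Glutathione is a tripeptide of glutamate, cysteine and glycine, and hepatocytes make and export much of the body's supply. The cytosolic transferases join its thiol to electrophiles, which are then exported, and the alpha, mu and pi classes are known as detoxification enzymes with strong differences between tissues, strains and sexes. Glutathione also binds copper in the cytosol, serves peroxidases as their electron donor, and is returned from its oxidised to its reduced form by glutathione reductase.

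Total counts ran from 5919389 to 25973968 per library. Reads were paired in wild type replicate 1 and Atp7b-/- replicate 3 and single in the remaining 4, and this layout separated the libraries along the first principal component (65% of the variance), ahead of genotype along the second (16.9%). The female label is on wild type replicates 2 and 3 and on Atp7b-/- replicate 3. Of these, wild type replicate 3 and Atp7b-/- replicate 3 held 59.5 and 295 CPM (the count scaled for library depth) of 4 summed Y-linked transcripts, against 0.68 CPM in wild type replicate 2. Wild type replicate 3 also held Xist, the transcript of the inactive X, at 17.4 CPM, against 371 CPM in wild type replicate 2 and 0.117 to 1.01 CPM in the other 4 libraries. The disrupted gene went with the genotype labels, since Atp7b stood at 25.3 to 85.2 CPM in wild type and 13.3 to 19.2 CPM in Atp7b-/- livers. Hepatocyte markers were abundant everywhere, with Alb at 42900 to 77700 CPM in wild type and 27700 to 49900 CPM in Atp7b-/- livers. No gene of the marker lists for hepatocytes, cholangiocytes, macrophages, endothelial, stellate, lymphoid or red blood cells was called between genotypes. The summed hepatocyte list lay at 107000 to 165000 CPM in wild type and 71000 to 115000 CPM in Atp7b-/- livers. Within both layouts this sum was lower in every Atp7b-/- library. The summed cholangiocyte list lay at 45.6 to 61.4 CPM in wild type and 61.7 to 98.6 CPM in Atp7b-/- livers, and the red blood cell list at 66.4 to 220 and 236 to 344 CPM. In every triple of values below, replicates 1, 2 and 3 of the named group come in that order.

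Of the 37 genes, 34 passed the filter on low counts, and 4 of those 34 rose in Atp7b-/- livers: the transferases Gsta1, Gsta2 and Gstm4, and Ggt1, the gamma-glutamyltransferase that starts the breakdown of glutathione outside the cell. None fell. In the edgeR fit the rises amounted to 13.1-fold for Gsta1, 2.9-fold for Gsta2 and 2.36-fold for Gstm4, while Ggt1 had 38 counts over the Atp7b-/- libraries against 1 over the wild type ones. Calls required an adjusted p under 0.05 in edgeR's quasi-likelihood test, which had terms for layout and genotype and was adjusted by Benjamini-Hochberg across the 12988 genes tested. The 4 calls are 11.8% of the tested members, beside 1.90% of all tested genes called higher and 0.585% called lower. Gsta1, Ggt1 and the uncalled Mgst2 passed the filter through the Atp7b-/- libraries alone. Each of them reached its level, 0.693 CPM before TMM scaling, in 3 Atp7b-/- and 0 wild type libraries, so these 3 were tested because they were high there. The shares and medians over the tested members are a description for that reason. The median log2 fold change was 0.18 over the 34 members and -0.01 over all tested genes, and 21 members had a positive and 13 a negative value. At an unadjusted p under 0.05 the counts were 8 members higher and 2 lower, against 7.80% and 6.74% of all genes. DESeq2 called 7 members higher and 1 lower, against 2.98% and 1.94% of its tested genes, and limma-voom 5 higher and 0 lower, against 1.99% and 0.716%. None of the 4 was called in the fit with no layout term. In the single-end libraries alone, or with either paired-end library left out, Gsta1, Gsta2 and Gstm4 were not called. Ggt1 did not pass the filter in those fits and was not tested there. Leaving out a paired-end library leaves the other with no partner of its layout, so such fits rest on the 4 single-end libraries.

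**Figure D1:**
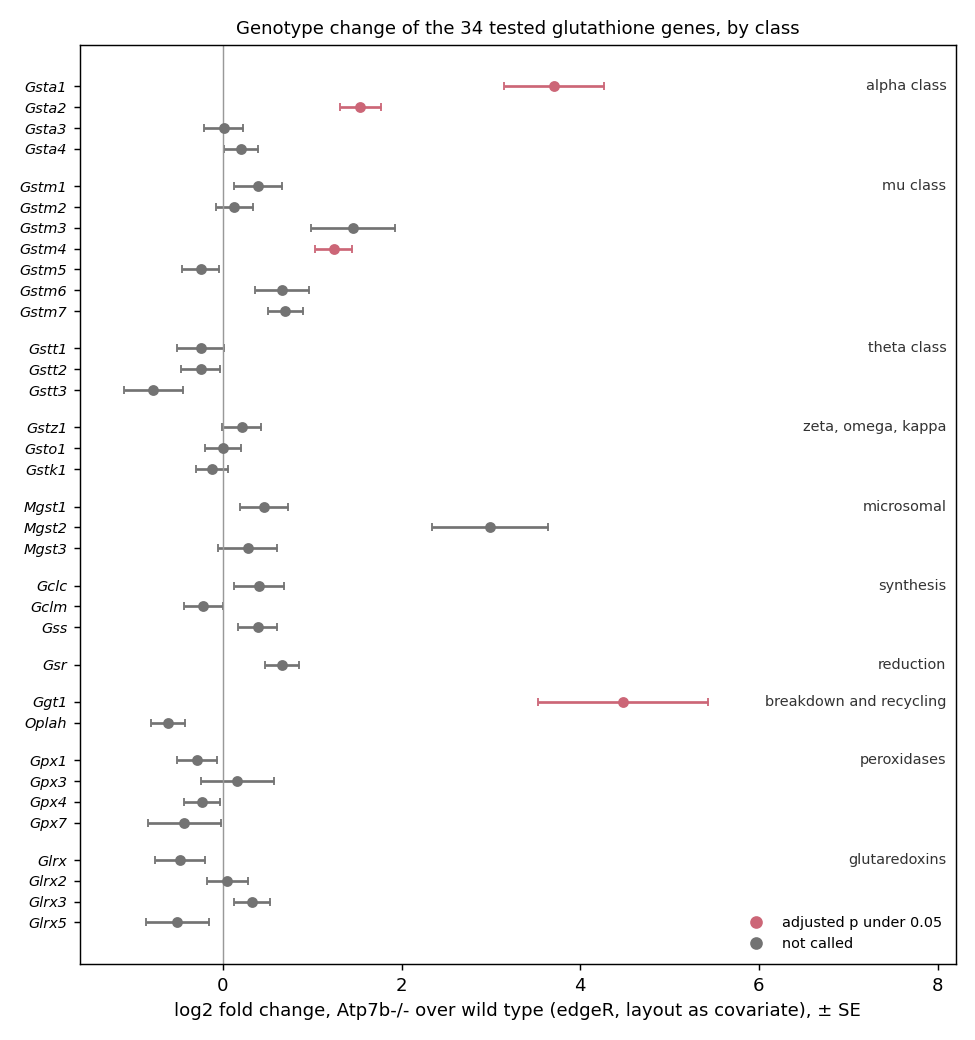
Log2 fold change of the 34 tested genes, Atp7b-/- over wild type, from the edgeR fit with layout as covariate. Points are the estimates, bars are 1 SE, and red marks an adjusted p under 0.05. Gsta1 (3.71), Gsta2 (1.54), Gstm4 (1.24) and Ggt1 (4.48) are the called genes, and the 3 theta class genes and 3 of the 4 peroxidases lie below 0.

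The abundant members were not the ones called. Per kilobase of merged exons, the highest levels in wild type livers were those of Mgst1 at 891 ± 932 CPM (mean ± SD, n = 3), Gpx1 at 841 ± 188 CPM and Gstm1 at 815 ± 299 CPM. These 3 overlap within their spread, so their order is not resolved. Gsta3 followed at 340 ± 44.5 CPM per kilobase and Gstt1 at 201 ± 118. The place of Gsta3 depends on its merged exon length, 4344 bases against 1441 for Gpx1 and 1473 for Gstm1. By CPM alone the wild type means were 1480 for Gsta3, 1210 for Gpx1 and 1200 for Gstm1. In Atp7b-/- livers the corresponding levels per kilobase were 959 ± 590 for Mgst1, 691 ± 165 for Gpx1, 1060 ± 147 for Gstm1, 344 ± 55.2 for Gsta3 and 155 ± 57.9 for Gstt1. None of these 5 genes was called. At the other end, Gsta1 lay at 0.571 ± 0.268 in wild type and 7.29 ± 6.37 CPM per kilobase in Atp7b-/- livers, and Ggt1 at 0.00447 ± 0.00774 and 0.218 ± 0.025. Gstm4 was the called member with the highest level per kilobase, with group means of 39.3 and 92.0 CPM per kilobase. The 4 genes Gsta3, Gstm1, Gpx1 and Mgst1 supplied 59.8% to 71.1% of the members' summed CPM in wild type and 61.6% to 66.8% in Atp7b-/- libraries.

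**Figure D2:**
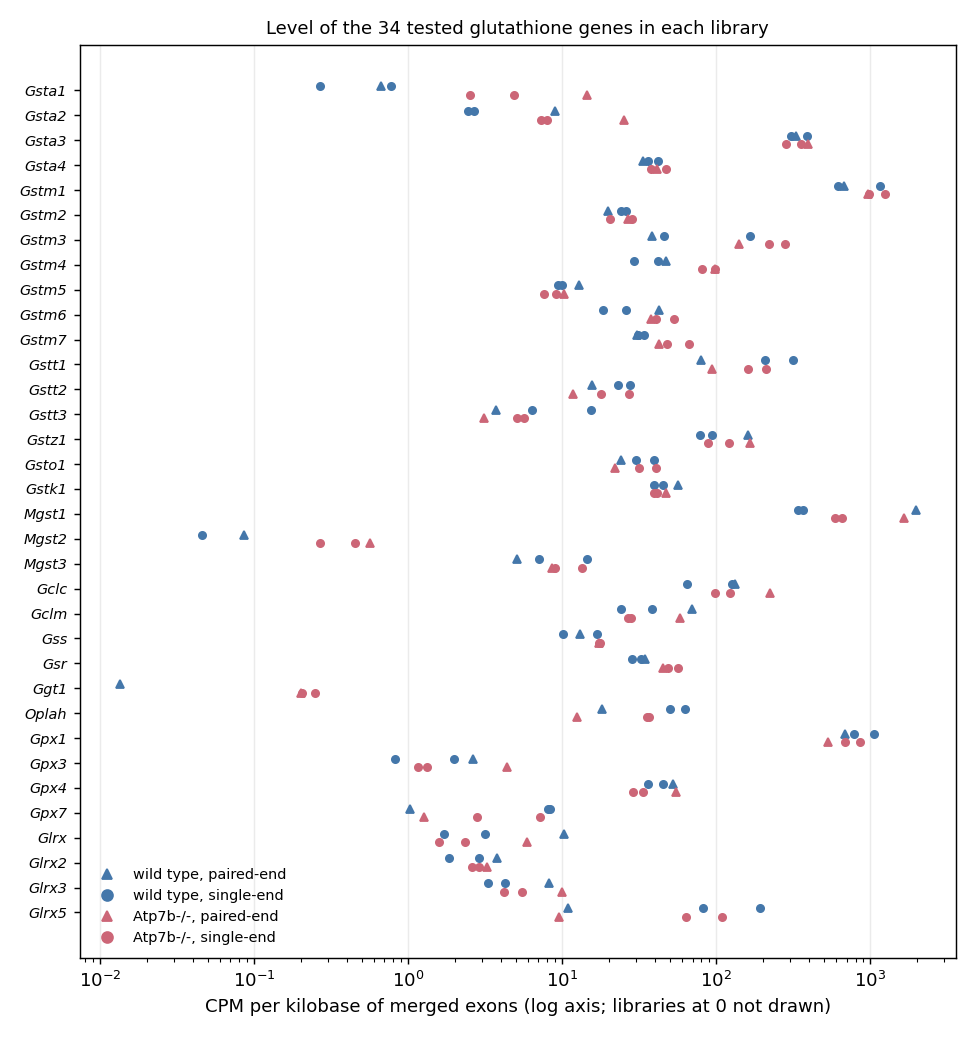
Level of the 34 tested genes in each library as CPM per kilobase of merged exons, on a log axis. Triangles are the paired-end and circles the single-end libraries, and each gene has its wild type libraries above its Atp7b-/- libraries. Mgst1, Gpx1, Gstm1 and Gsta3 are the most abundant, while Gsta1, Mgst2 and Ggt1 are shifted to the right in Atp7b-/- livers from levels near the bottom of the range.

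The alpha class transferases conjugate glutathione to lipid peroxidation products and drugs and reduce organic hydroperoxides. Of the 4 alpha class members, all tested, Gsta1 and Gsta2 rose and Gsta3 and Gsta4 were not called. Gsta1, Gsta2 and Gsta4 lie within 173 kb on chromosome 9, and Gclc lies in the same 601.3 kb, while Gsta3 is on chromosome 1 (21240589 to 21265661, plus strand, GRCm38). Gsta1 (ENSMUSG00000074183) is at chromosome 9, 78230656 to 78242684, plus strand, and Gsta2 (ENSMUSG00000057933) at 78331018 to 78355788, minus strand. The coding sequences of Gsta1 and Gsta2 differ at 14 of 669 compared bases, an identity of 97.91%, and 291 of 616 stretches as long as the 54-base reads are identical. Coding bases 548 to 667, near the end of the coding sequence, hold 6 of these 14 differences and are shown from the GENCODE transcripts of build GRCm38, 5′ to 3′, at chr9:78242454-78242573 on the plus strand for Gsta1 and chr9:78331129-78331248 on the minus strand for Gsta2. Capitals mark the bases that differ, and the stretch was chosen as the 120 bases with the most differences.
Gsta1: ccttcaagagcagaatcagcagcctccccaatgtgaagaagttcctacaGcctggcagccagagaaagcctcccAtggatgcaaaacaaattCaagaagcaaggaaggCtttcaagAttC
Gsta2: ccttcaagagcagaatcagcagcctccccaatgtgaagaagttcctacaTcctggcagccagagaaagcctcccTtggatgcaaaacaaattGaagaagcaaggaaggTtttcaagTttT
Over all annotated transcripts of each gene, 89.57% of the 54-base stretches of Gsta1 and 47.14% of those of Gsta2 also occur in another gene's transcripts. The largest partner of Gsta1 was the predicted gene Gm3776, at 74.69%, and that of Gsta2 was Gsta1, at 34.33%. No row of the count table matched Gm3776, so Gsta1 could not be compared with it. Gsta1 and Gsta2 are therefore uncertain as separate genes, since the authors' handling of reads with several matches is not known here.

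Gsta1 was near the limit of detection in wild type livers, at 0.64, 0.255 and 0.741 CPM (14, 3 and 4 counts). In Atp7b-/- livers it stood at 2.39, 4.63 and 13.9 CPM (41, 33 and 403 counts). Every Atp7b-/- library was above every wild type library, and the paired-end Atp7b-/- replicate 3 was the highest. The means were 0.545 ± 0.257 and 6.97 ± 6.09 CPM (SD, n = 3), which the edgeR quasi-likelihood fit put at 3.71 on the log2 scale (SE 0.56, adjusted p = 0.00885). Within layouts the log2 ratio was 4.44 paired-end and 2.82 single-end. Without wild type replicate 1 the log2 fold change was 2.97 (adjusted p = 0.118), and without Atp7b-/- replicate 3 it was also 2.97 (adjusted p = 0.164). With both libraries of contradictory sex label left out it was 3.69 (adjusted p = 0.0758). Over all alternatives the adjusted p ran from 5.35e-11 to 0.681. In whole liver, more cells that carry a transcript and more transcript per cell cannot be told apart, here or for any gene below.

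Gsta2 stood at 10.6, 2.89 and 3.15 CPM in wild type and 9.33, 8.56 and 29.4 CPM in Atp7b-/- livers. The groups overlapped, because the paired-end wild type library exceeded both single-end Atp7b-/- libraries, but within each layout every Atp7b-/- library was the higher. The log2 ratio was 1.48 paired-end and 1.57 single-end. In the edgeR quasi-likelihood fit the log2 fold change was 1.54 (SE 0.23, adjusted p = 0.00885). It was 1.58 without wild type replicate 1 (adjusted p = 0.0744) and 1.59 without Atp7b-/- replicate 3 (adjusted p = 0.0983), so the call ended while the estimate stayed. Without both libraries of contradictory sex label the adjusted p was 0.0994, and over all alternatives it ran from 4.93e-06 to 1.

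Gsta3, per length the most abundant of the class, was not called. It stood at 1420, 1320 and 1690 CPM in wild type and 1540, 1230 and 1710 CPM in Atp7b-/- livers, with groups that overlapped fully and a log2 fold change of 0.01 (SE 0.22, edgeR adjusted p = 0.993). Gsta4, whose product is known for its preference for hydroxynonenal, stood at 42, 52.9 and 45.6 CPM in wild type and 59.9, 48 and 52.4 CPM in Atp7b-/- livers. Its log2 fold change was 0.20 (SE 0.19, adjusted p = 0.697). The summed alpha class lay at 1380 to 1740 CPM in wild type and 1300 to 1800 CPM in Atp7b-/- libraries.

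**Figure D3:**
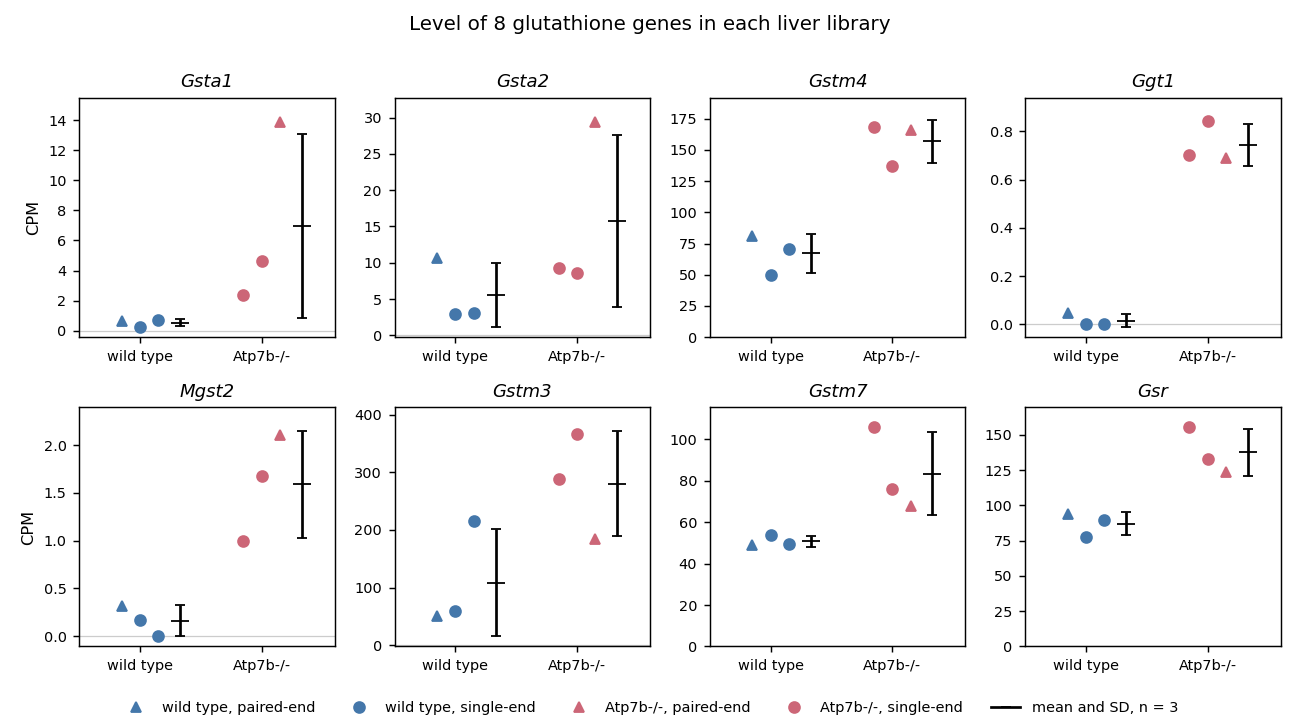
CPM of 8 members in each library. Blue is wild type and red Atp7b-/-, triangles are paired-end and circles single-end libraries, and the black bar is the mean with its SD (n = 3). Gsta1, Gstm4, Ggt1, Mgst2, Gstm7 and Gsr show no overlap between genotypes, while the paired-end wild type library overlaps the Atp7b-/- range for Gsta2 and wild type replicate 3 does so for Gstm3. Gsta1, Gsta2, Gstm4 and Ggt1 are the called genes.

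The mu class transferases act on epoxides and quinones, and their 7 genes lie side by side within 149.1 kb of chromosome 3 (107895821 to 108044894, GRCm38) in the order Gstm5, Gstm7, Gstm6, Gstm3, Gstm2, Gstm1 and Gstm4. Of the 7, all tested, Gstm4 rose and 6 were not called. The estimates were positive for 6 and negative for Gstm5, with a median log2 fold change of 0.66.

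Gstm4 (ENSMUSG00000027890, chromosome 3, 108040408 to 108044894, minus strand) stood at 80.7, 49.6 and 71 CPM in wild type and 168, 137 and 166 CPM in Atp7b-/- livers. The groups did not overlap, and the gap between the highest wild type and the lowest Atp7b-/- library was wider than either group's range. The means were 67.1 ± 15.9 and 157 ± 17.1 CPM, a log2 fold change of 1.24 (SE 0.21, edgeR adjusted p = 0.0179). The log2 ratio was 1.04 paired-end and 1.34 single-end. None of its 54-base stretches occurs in another gene's annotated transcripts. Its call was lost without wild type replicate 1 (log2 fold change 1.35, adjusted p = 0.0878), without Atp7b-/- replicate 1 (1.14, adjusted p = 0.0586) and without Atp7b-/- replicate 3 (1.36, adjusted p = 0.0875). With both libraries of contradictory sex label left out it was 1.62 (adjusted p = 0.0179). With layout and labelled sex together in the fit the adjusted p was 0.0539, and over all alternatives it ran from 2.53e-06 to 1.

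Gstm3 had the largest estimate of the class, but its wild type libraries disagreed. It stood at 50.4, 60.1 and 216 CPM in wild type and 288, 367 and 185 CPM in Atp7b-/- livers. Wild type replicate 3 lay above the lowest Atp7b-/- library and the other 2 wild type libraries far below all 3. The log2 fold change was 1.46 (SE 0.47, edgeR adjusted p = 0.219), and it was 2.20 without wild type replicate 3 (adjusted p = 0.00406, within an alternative range of 1.39e-07 to 1). Wild type replicate 3 is the library that held both Xist and Y-linked transcripts, and the part of this in the Gstm3 level was not tested. Of the 54-base stretches of Gstm3, 27.5% occur in other genes.

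Gstm1, per length the most abundant mu class member, stood at 995, 901 and 1710 CPM in wild type and 1450, 1820 and 1430 CPM in Atp7b-/- livers. The groups overlapped and the log2 fold change was 0.39 (SE 0.27, edgeR adjusted p = 0.565). Gstm7 stood at 48.9, 53.9 and 49.3 CPM in wild type and 106, 76.2 and 67.9 CPM in Atp7b-/- livers, without overlap, and its log2 fold change of 0.70 (SE 0.20) missed the call (edgeR adjusted p = 0.133). DESeq2 and the edgeR fit without a filter put it past the threshold (adjusted p = 0.0493 and 0.0306), within a range of 0.0306 to 1 over all alternatives.

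Gstm6 went opposite ways in the layouts, at 84.3, 36.6 and 51.7 CPM in wild type and 106, 80.3 and 74.7 CPM in Atp7b-/- livers. Its log2 ratio was -0.17 paired-end and 1.08 single-end, and its log2 fold change was 0.66 (SE 0.30, edgeR adjusted p = 0.357). Gstm2 (33.4 to 43.4 CPM in wild type, 34.2 to 47.9 in Atp7b-/- livers) and Gstm5 (11.9 to 16.3 and 9.68 to 13.1) overlapped between genotypes, with log2 fold changes of 0.13 and -0.25. Summed over the 7 genes, the mu class lay at 1310, 1150 and 2150 CPM in wild type and 2180, 2520 and 1980 CPM in Atp7b-/- libraries. Wild type replicate 3 again lay within the Atp7b-/- range.

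The pi class was barely detected. Gstp1, which in mouse liver is known for higher levels in males, had 0 counts in every wild type library and 1, 1 and 2 counts in Atp7b-/- libraries, and Gstp2 had 0 counts in all 6. Counts of 0 allow up to 3 counts per library, which is 0.103 to 0.556 CPM, so no change can be stated. Both lie within 10.6 kb on chromosome 19 and their coding sequences differ at 12 of 633 bases (98.1% identity). Over the coding sequence, 407 of 580 stretches as long as the 54-base reads are identical (70.17%). The first 120 coding bases hold 6 of the 12 differences, which capitals mark here. They were chosen as the 120 bases with the most differences, so they are the part that reads tell apart best.
Gstp1: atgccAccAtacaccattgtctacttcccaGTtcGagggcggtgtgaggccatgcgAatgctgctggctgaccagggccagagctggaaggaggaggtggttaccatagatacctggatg
Gstp2: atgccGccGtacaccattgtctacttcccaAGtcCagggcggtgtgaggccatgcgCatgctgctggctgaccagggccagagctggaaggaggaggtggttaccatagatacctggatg
Of the 54-base stretches of their transcripts, 32.97% for Gstp1 and 53.47% for Gstp2 occur in another gene. Over their protein-coding transcripts alone the shares were 49.95% and 49.5%. The near absence of counts for this class is uncertain, since the handling of reads with several matches is not known here. The rest of their stretches are not shared, and the cause of the low counts was not tested.

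**Figure D4:**
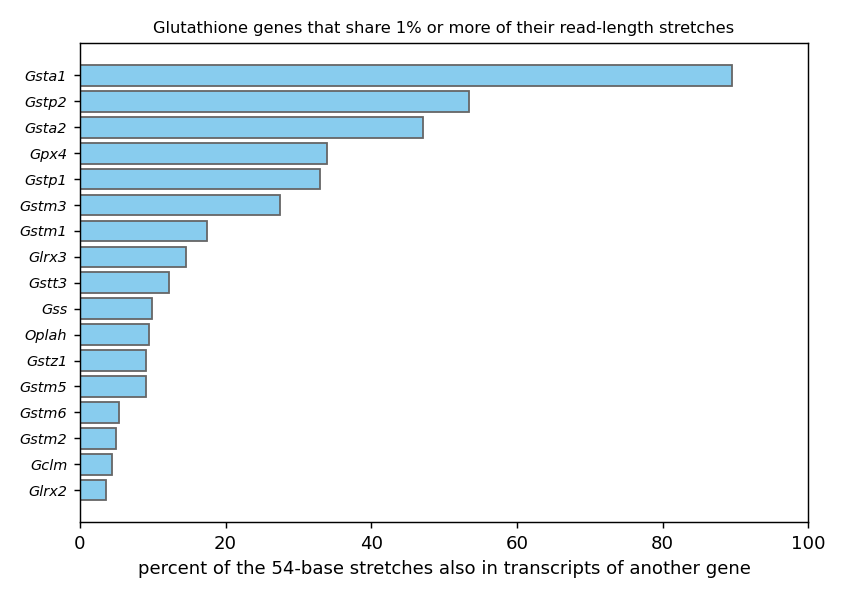
Percent of the 54-base stretches of each gene's annotated transcripts that also occur in the transcripts of another gene, for the 17 members where this is 1% or more. Gsta1 at 89.57%, Gstp2 at 53.47% and Gsta2 at 47.14% stand highest, and Gstm4 and Ggt1 are not drawn because they share none.

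The theta class, which acts on small halogenated compounds, had 3 tested members within 63.3 kb of chromosome 10, all with negative estimates and none called (median log2 fold change -0.25). Gstt1 stood at 121, 482 and 317 CPM in wild type and 321, 245 and 144 CPM in Atp7b-/- livers. Its lowest library in each genotype was the paired-end one, the groups overlapped, and the log2 fold change was -0.25 (SE 0.26, edgeR adjusted p = 0.719). Gstt3 stood at 14.3, 59 and 24.5 CPM in wild type and 21.7, 19.4 and 11.9 CPM in Atp7b-/- livers. Wild type replicate 2, the library with the female pattern of Xist and Y-linked transcripts, was the highest, and the log2 fold change moved from -0.78 (SE 0.33, edgeR adjusted p = 0.338) to -0.25 without it. Within both layouts Gstt3 was lower in every Atp7b-/- library. Gstt2 overlapped between genotypes, at 65.2 to 114 and 48.5 to 113 CPM.

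Among the remaining cytosolic and mitochondrial transferases none was called. Gstz1, the maleylacetoacetate isomerase of tyrosine breakdown, stood at 813, 477 and 397 CPM in wild type and 618, 448 and 838 CPM in Atp7b-/- livers, again highest in the paired-end library of each genotype. Its log2 fold change was 0.21 (SE 0.22, edgeR adjusted p = 0.726). Gsto1, which reduces dehydroascorbate, and Gstk1, a mitochondrial and peroxisomal transferase, stood at 48.3 to 79.7 and 57.4 to 83.2 CPM in wild type and 44.6 to 82.4 and 58.2 to 69.7 CPM in Atp7b-/- livers. Both overlapped between genotypes, with log2 fold changes of -0.00 and -0.12.

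The microsomal transferases are membrane proteins of a separate family, and Mgst2 in particular also makes leukotriene C4. None of the 3 was called, but Mgst2 came close. Mgst2 was at 0.32, 0.17 and 0 CPM in wild type (7, 2 and 0 counts) and 0.991, 1.68 and 2.1 CPM in Atp7b-/- livers (17, 12 and 61 counts). The groups did not overlap, the ratio of the summed counts at equal depth was 7.32 (95% exact interval 3.69 to 16.5, counting error only), and the log2 fold change was 2.99 (SE 0.65, edgeR adjusted p = 0.0504). DESeq2, limma-voom, upper quartile scaling and 2 other filters put it past the threshold (adjusted p = 0.0198, 0.0393, 0.0477, 0.00273 and 0.0464), within a range of 0.00273 to 1 over all alternatives.

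Mgst1 followed the layout far more than the genotype. It stood at 3960, 679 and 740 CPM in wild type and 1310, 1180 and 3300 CPM in Atp7b-/- livers, so that each paired-end library exceeded every single-end one. Its log2 ratio was -0.26 paired-end and 0.81 single-end, and its log2 fold change was 0.46 (SE 0.27, edgeR adjusted p = 0.485). Mgst3 stood at 5.58, 15.9 and 7.79 CPM in wild type and 14.7, 9.82 and 9.4 CPM in Atp7b-/- livers, overlapping, with a log2 fold change of 0.28.

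Glutathione is made by glutamate-cysteine ligase, whose catalytic subunit is Gclc and whose modifier subunit is Gclm, and then by glutathione synthetase, Gss. None of these 3 was called. Gclc averaged 405 ± 141 CPM in wild type, where replicate 2 was the lowest, and stood at 465, 370 and 843 CPM in Atp7b-/- livers. The groups overlapped, and the log2 fold change was 0.40 (SE 0.28, edgeR adjusted p = 0.579). Gclm stood at 438, 152 and 241 CPM in wild type and 167, 176 and 366 CPM in Atp7b-/- livers, also with overlap, and its log2 fold change was -0.22 (SE 0.22, adjusted p = 0.715). The subunits' estimates thus had opposite signs. Gss stood at 77.1, 99.9 and 59.5 CPM in wild type and 104, 103 and 103 CPM in Atp7b-/- livers. All 3 Atp7b-/- libraries lay just above the highest wild type library, and the log2 fold change of 0.39 (SE 0.22, edgeR adjusted p = 0.477) was not called.

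Gsr, the reductase that regenerates reduced glutathione with NADPH, stood at 94.1, 77.8 and 89.7 CPM in wild type and 156, 133 and 124 CPM in Atp7b-/- livers. The groups did not overlap and both layouts had the same direction, with a log2 fold change of 0.66 (SE 0.19). It missed the call (edgeR adjusted p = 0.141), while DESeq2 gave an adjusted p of 0.0378, within a range of 0.0378 to 1 over all alternatives.

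Breakdown begins with gamma-glutamyltransferase, whose gene Ggt1 is known to be low in adult hepatocytes and high in bile duct cells and kidney. Ggt1 (ENSMUSG00000006345, chromosome 10, 75561604 to 75586200, plus strand) had 1, 0 and 0 counts in wild type and 12, 6 and 20 counts in Atp7b-/- libraries, or 0.0457, 0 and 0 CPM and 0.7, 0.842 and 0.689 CPM. Every Atp7b-/- library was above every wild type library. Against 1 wild type count, the 38 Atp7b-/- counts give a ratio of 27.8 at equal depth, with a 95% exact interval from 4.7 to 1130 that covers counting error only. The edgeR log2 fold change was 4.48 (SE 0.95, adjusted p = 0.0456), in a gene that only the Atp7b-/- libraries carried past the filter and that was not tested under the stricter filter of CPM 1 in 3 libraries. Of the leave-outs, Ggt1 passed the filter only without wild type replicate 2, wild type replicate 3 or Atp7b-/- replicate 2, and it was called in none of them (adjusted p = 0.136, 0.111 and 0.105). DESeq2 gave 0.0535, limma-voom 0.023 and the fit with layout and labelled sex 0.0987, within a range of 0.00794 to 0.573 over all alternatives. The summed cholangiocyte markers moved the same way between genotypes (45.6 to 61.4 and 61.7 to 98.6 CPM, 0 of 7 tested called), and their part in the Ggt1 change was not tested. Oplah, the oxoprolinase that returns glutamate to the cycle, was lower in every Atp7b-/- library within both layouts. It stood at 105, 293 and 366 CPM in wild type and 206, 214 and 72.7 CPM in Atp7b-/- livers, with a log2 fold change of -0.61 (SE 0.19) that was not called (edgeR adjusted p = 0.16; DESeq2 0.02, within 0.02 to 1 over all alternatives).

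The glutathione peroxidases reduce hydrogen peroxide and lipid hydroperoxides. Of 5 members, 4 were tested and none was called, with a median log2 fold change of -0.26. Gpx1, the abundant cytosolic enzyme, stood at 987, 1510 and 1130 CPM in wild type and 1240, 987 and 762 CPM in Atp7b-/- livers, with overlap and a log2 fold change of -0.29 (SE 0.22, edgeR adjusted p = 0.599). Gpx4, which reduces peroxidised membrane lipids, stood at 89.6, 61.9 and 77.7 CPM in wild type and 57.2, 49.4 and 94.2 CPM in Atp7b-/- livers, a log2 fold change of -0.23 (adjusted p = 0.661). Of its 54-base stretches 33.92% occur in other genes, chiefly the pseudogene Gpx4-ps2. The secreted Gpx3 (1.48 to 4.75 and 2.1 to 7.99 CPM) and Gpx7 (1.33 to 10.8 and 1.62 to 9.26 CPM) overlapped between genotypes. Gpx8 did not pass the filter, with 50, 1 and 1 counts in wild type and 7, 2 and 68 in Atp7b-/- libraries, nearly all in the paired-end ones.

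The glutaredoxins use glutathione to reduce mixed disulfides, and Glrx is known to interact with Atp7b. All 4 were tested and none was called. Glrx stood at 56.4, 9.43 and 17.2 CPM in wild type and 8.69, 12.9 and 32.4 CPM in Atp7b-/- livers, again highest in the paired-end library of each genotype, with a log2 fold change of -0.48 (SE 0.28, edgeR adjusted p = 0.491). Glrx5, which serves mitochondrial iron-sulfur cluster assembly, showed the reverse, at 39.8, 302 and 711 CPM in wild type and 235, 399 and 35.3 CPM in Atp7b-/- livers. Its lowest library in each genotype was the paired-end one, and its log2 fold change was -0.51 (SE 0.35, adjusted p = 0.569). Glrx2 and Glrx3 overlapped between genotypes, at 16.1 to 33.2 and 16.5 to 41 CPM in wild type and 22.7 to 28.4 and 21 to 49.8 CPM in Atp7b-/- livers.

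Because layout outweighed genotype, each gene was also compared within its layout, 1 library against 1 paired-end and 2 against 2 single-end. Single-end, the wild type libraries are labelled female and the Atp7b-/- ones male, and paired-end it is the reverse. Within a layout, genotype and labelled sex therefore cannot be told apart. The summed male-biased liver genes stood at 8430, 177 and 2380 CPM in wild type and 2670, 2590 and 5290 CPM in Atp7b-/- livers. For the female-biased genes it was 313, 1830 and 155 CPM and 587, 539 and 431 CPM. In 9 of the 34 members (26.5%) every Atp7b-/- library was higher than every wild type library within both layouts, beside 15.1% of all tested genes. In 3 members (8.82%), Gstm5, Gstt3 and Oplah, every one was lower, beside 14.1%. Across layouts, 7 members (20.6%) had no overlap with the Atp7b-/- libraries higher, beside 5.23% of all genes, and 0 had no overlap with them lower, beside 3.28%. The 7 were Gsta1, Gstm4, Gstm7, Mgst2, Gss, Gsr and Ggt1. Of these, Gsta1, Mgst2 and Ggt1, which are also among the 9, passed the filter through the Atp7b-/- libraries alone. They were tested because they were high there, so both shares are a description and no test. The term for a genotype change that differs between layouts, which is equally the term for labelled sex, called 2 of 12988 genes (0.0154%) and 0 members in the edgeR quasi-likelihood fit. At an unadjusted p under 0.05 it named 2 members, Gstm6 and Mgst1, beside 4.57% of all genes, and the adjusted p was 0.987 for each.

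**Figure D5:**
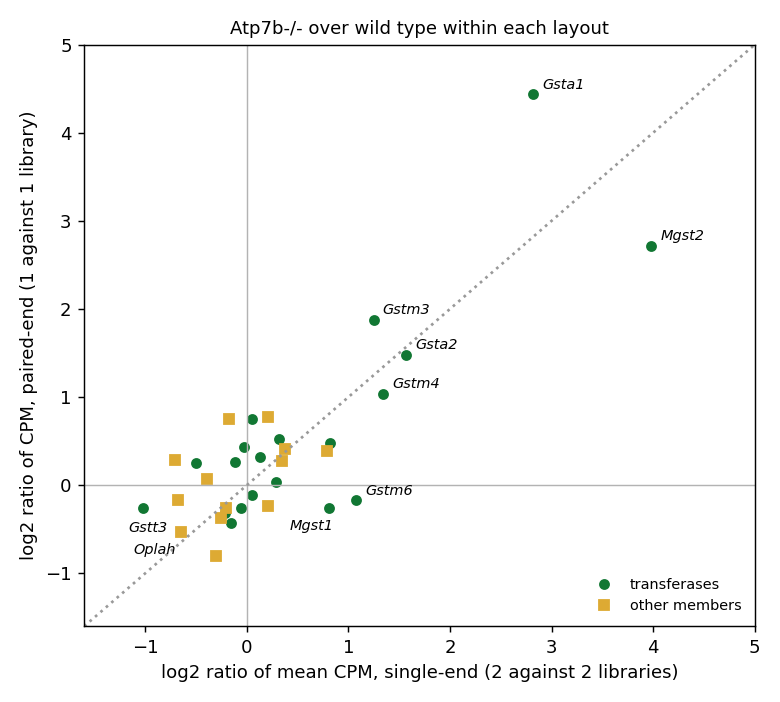
Log2 ratio of CPM, Atp7b-/- over wild type, in the single-end libraries (horizontal axis, means of 2 against 2) and the paired-end libraries (vertical axis, 1 against 1) for the tested members with counts in both genotypes of each layout. Circles are transferases, squares other members, and the dotted line is equality. Gsta1 (2.82 and 4.44), Gsta2 (1.57 and 1.48), Gstm4 (1.34 and 1.04) and Gstm3 (1.25 and 1.88) lie in the upper right, while Mgst1 and Gstm6 have opposite signs in the layouts.

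The promoters of the called members were read for sequence cores that copper-responsive and redox-responsive factors are known to bind. RefSeq windows from 250 bases before to 50 bases after a transcription start (build GRCm38.p6) were held for 32 of the 37 members. The cores searched on both strands were TGCACNC or TGCGCNC for the metal response element, bound by the metal-responsive factor MTF-1, and TGACNNNGC for the antioxidant response element, bound by Nrf2. The stretch from 100 bases before to 10 bases after the start is shown, 5′ to 3′ on the gene's strand, with matches in capitals, at chr9:78230569-78230678 (plus) for Gsta1, chr9:78347136-78347245 (minus) for Gsta2, chr3:108044850-108044959 (minus) for Gstm4 and chr10:75571460-75571569 (plus) for Ggt1.
Gsta1 promoter: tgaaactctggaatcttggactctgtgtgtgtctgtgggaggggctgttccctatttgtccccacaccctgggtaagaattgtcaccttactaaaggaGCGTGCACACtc
Gsta2 promoter: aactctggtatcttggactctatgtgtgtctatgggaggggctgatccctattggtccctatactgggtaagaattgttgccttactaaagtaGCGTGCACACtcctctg
Gstm4 promoter: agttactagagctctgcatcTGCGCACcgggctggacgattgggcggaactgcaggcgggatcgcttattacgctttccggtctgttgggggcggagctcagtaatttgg
Ggt1 promoter: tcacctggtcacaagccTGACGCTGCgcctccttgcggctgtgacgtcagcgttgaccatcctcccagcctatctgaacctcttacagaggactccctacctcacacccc
The capitals in Gsta1 and Gsta2 are the same letters next to the start, where matches on both strands overlap, and the promoters are alike around them. The windows of Gsta1, Gsta2 and Gstm4 held the metal core and not the antioxidant core, and the windows at 3 of the 4 starts of Ggt1, of which 1 is shown, held the antioxidant core, with the metal core in none of the 4. The metal core was in 12 of the 32 members with a window, beside 28.23% of 27025 genes, and the antioxidant core in 6, beside 13.99%. These 6 were Gsta3, Gstm5, Gstm7, Mgst1, Gclm and Ggt1, of which Ggt1 alone was called. A match is only a run of letters in this window and says nothing of whether a factor binds there.

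The wider pathway was read from a list of 61 further genes for glutathione supply, turnover, transport and use, of which 59 had a row and 46 were tested. None was called by edgeR's quasi-likelihood test, beside 2.49% of all genes called in either direction. At an unadjusted p under 0.05 in that test there were 13, beside 7.80% of all genes higher and 6.74% lower. DESeq2 called 2 higher and 2 lower, beside 2.98% and 1.94% of its tested genes. By limma-voom it was 1 higher and 0 lower, beside 1.99% and 0.716%. The median log2 fold change was 0.10, with 28 positive and 18 negative estimates. The smallest p belonged to Nat8, which acetylates cysteine conjugates in the last step of mercapturic acid synthesis. It stood at 1.69, 0.595 and 3.52 CPM in wild type and 6.12, 6.73 and 11.5 CPM in Atp7b-/- livers, without overlap, and its estimate of 2.20 on the log2 scale had an SE of 0.55 (edgeR adjusted p = 0.0945). The neutral amino acid carriers went opposite ways. Slc1a5 stood at 6.31, 3.91 and 4.45 CPM in wild type and 1.63, 1.82 and 3.24 CPM in Atp7b-/- livers (log2 fold change -1.15, adjusted p = 0.122). Slc1a4 stood at 5.85, 7.73 and 5 CPM in wild type and 14.6, 8.42 and 21.3 CPM in Atp7b-/- livers (log2 fold change 1.21, adjusted p = 0.123). Neither overlapped between genotypes. Gstcd, a protein with a transferase-like domain, followed with a log2 fold change of 0.88 (adjusted p = 0.14).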

How the data were processed

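The authors deposited whole-number read counts per Ensembl gene for 6 liver libraries, not normalized. The submitters' processing notes name STAR 2.4, featureCounts, edgeR 3.8 and the build GRCm38. Which annotation release and strand setting were used, how reads with several matches were treated and whether a read pair counted as 1 is not known here. Gstm5, Gstz1, Gss, Oplah and Gclm are uncertain without the strand setting, since their exons overlap antisense genes, and Gstt3 and Gclm also because they overlap a gene on their own strand. Symbols and exon lengths came from GENCODE M21, which named 40340 identifiers.

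Counts were scaled by TMM, filtered with filterByExpr (minimum count 10) and tested with edgeR 4.0.16 in R 4.3.3 by a robust quasi-likelihood fit with terms for layout and genotype (3 residual degrees of freedom). P-values were adjusted by Benjamini-Hochberg across 12988 genes, and calls were made at an adjusted p under 0.05. CPM are after TMM. DESeq2 1.42.0, limma 3.58.1 (voom), other scalings, filters and covariates, and leaving out libraries were alternatives. On simulated data for this comparison with 12988 genes, 32.7% of genes changed 2-fold and 85.3% of those changed 4-fold were called. Chi-square per gene between libraries was 37.1 to 492, so none were merged as duplicates. Intervals and floors cover counting error only. All listed members are named. Other pathway genes were named if called or, with fewer than 4 calls, by the smallest p up to 4. The members and lists were chosen with earlier results of these data known.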

Additional observations from a re-analysis of the deposited data

How the results depend on the processing

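Over all genes, 323 were called. The count was 0 without a layout term, 0 with labelled sex in its place, 726 by DESeq2, 1116 without a filter on low counts, 126 in the single-end libraries alone and 119 to 323 with 1 library left out. Members called higher numbered 4. They numbered 0 without a layout term, 0 with labelled sex in its place, 2 with layout and labelled sex (Gsta1 and Gsta2), 7 by DESeq2, 7 without a filter, 0 in the single-end libraries and 0 to 4 with 1 library left out. Leaving out both libraries whose sex label and Y-linked transcripts disagree, an alternative chosen after seeing the data, called 2 higher (Gstm3 and Gstm4) and 1 lower (Gstt3). Members called lower numbered 0 otherwise, except 1 by DESeq2 (Oplah) and 1 without a filter (Gstt3). Other pathway genes called numbered 0, but 1 with layout and labelled sex, 4 by DESeq2, 1 by limma-voom, 5 without a filter, 1 without both of those libraries and 0 to 1 with 1 library left out. The interaction of layout and genotype called 2 genes, and 0 to 141 with 1 single-end library left out. The causes were not tested, except that fewer libraries or other sets of tested genes are part of these settings. None of the named genes past the threshold reversed under any alternative run, and 12 members that were not called changed sign under at least 1 of 17 alternatives. No paired analysis was possible because the labels give the groups no shared replicate numbers. Low counts limit what can be said of Ggt1, Mgst2, Gstp1, Gstp2 and, in wild type livers, Gsta1.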

Other observations

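The ratio of Gclc to Gclm counts, a measure picked after the values of these genes were seen, was 1.13, 1.6 and 1.98 in wild type and 2.78, 2.11 and 2.3 in Atp7b-/- replicates 1 to 3. The means were 1.57 ± 0.427 and 2.4 ± 0.349 (SD, n = 3), and the groups did not overlap. No test is given, since the ratio was picked for these values. The ratio compares read counts of genes of different length, so its size is not a ratio of molecules.

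Gm10639, a predicted alpha class paralog named here after its values were seen, had 25 counts over the Atp7b-/- libraries and 0 over the wild type ones. It did not pass the filter on low counts and was not tested.

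Summed over all 37 members, the level was 10360, 7305 and 8821 CPM in wild type and 8983, 8462 and 10780 CPM in Atp7b-/- livers. Mgst1 alone supplied 38.2% of this sum in wild type replicate 1 and 30.6% in Atp7b-/- replicate 3, both paired-end, against 8.4% to 14.6% elsewhere.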
